A study of Mus musculus with 24 samples.

Results

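The EGF receptor family of the mouse pancreas was followed through 10 genes, chosen by name: the receptors Egfr, Erbb2 and Erbb3, the ligands Areg, Ereg, Hbegf, Tgfa, Btc and Epgn, and Errfi1, an inhibitor that the active receptor induces. They are 10 of the 19895 entries in the gene table. The table gave 9 of them an entry of their own. Erbb2 was listed only together with its neighbour Mien1. Epgn was at or near 0 in every library. The 8 other members were among the 11438 entries of a single gene with a count above 0 in every library, and these were tested.

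The libraries came from 3-dimensional organoids, that is, ductal cells grown as spheres in a matrix. N organoids were grown from the normal pancreas of C57Bl/6J mice. KP organoids were grown from pancreatic tumours of mice whose engineered alleles include p53 R172H, switched on by a Cre under the Pdx1 promoter in the pancreatic lineage. Each type received vehicle or CR-31 at 10 nM for 1 h. CR-31 is a rocaglate, a compound that clamps the helicase eIF4A onto mRNA and so blocks the start of translation. From each of the 12 lysates the mRNA bound by 3 or more ribosomes (polysome-associated mRNA) and the total mRNA were sequenced, with 3 replicates in each of the 8 groups. All groups were grown without EGF and N-acetylcysteine in the medium. The labels do not say how many mice or organoid lines the replicates represent, so the p-values measure the spread between these libraries.

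The receptors of this family are tyrosine kinases that sit in the membrane of epithelial cells. The ligands are made as membrane-anchored precursors and are released by ADAM proteases, after which they bind receptors, receptors pair up, and signals pass through adaptors such as Shc1 and Grb2 to Ras and to PI3-kinase. Egfr binds all 6 ligands listed here, Hbegf, Btc and Ereg also bind the family member Erbb4, and Erbb2 has no known ligand and acts as a partner. Erbb3 has a weak kinase and couples well to PI3-kinase. In the pancreas, Egfr and Tgfa are known for their part in the change of acinar cells to duct-like cells that comes before tumours.

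The libraries held 47308461 to 267463046 counted reads. The 10 markers of epithelium and duct summed to between 6280 and 15903 CPM (counts scaled to a common library size), so the label of duct-like organoids held in every library. In vehicle polysome-associated mRNA the sum was 11593 to 14640 CPM in N and 6359 to 10930 CPM in KP, without overlap, and in vehicle total mRNA it was 10771 to 15903 CPM and 6622 to 11384 CPM. By their means, 9 of the 10 markers were lower in KP and 1 higher in vehicle polysome-associated mRNA, and 8 lower and 2 higher in total mRNA. Krt19 was nearly level in N and KP vehicle polysome-associated mRNA (1896 and 1874 CPM) and Krt7 was the higher one (947 and 1317 CPM), both keratins of duct cells. The widest gaps by fold were those of Sox9 with 108 and 37.2 CPM, a transcription factor of duct cells, and of Spp1, which encodes osteopontin, with 1814 and 306 CPM. Markers of other cells were low. The fibroblast list summed to 0.471 to 2.22 CPM in N and to 0.0758 to 0.333 CPM in KP, the endothelial list to at most 0.437 CPM, and the acinar list to 3.39 to 5.34 CPM. The leukocyte list summed to 16.8 to 34.999 CPM in N. In KP it summed to 3.26 to 5.97 CPM, except for 1 vehicle polysome library at 44.2 CPM. The fibroblast list differed between N and KP without overlap, the leukocyte list did so apart from that library, and the acinar list overlapped in vehicle polysome-associated mRNA. In vehicle total mRNA the acinar list was at 4.57 to 4.95 CPM in N and at 3.46 to 4.07 CPM in KP, without overlap. The part of these lists in the results was not tested.

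Some libraries went against their labels. Over the 11438 genes, each library was expressed as its deviation from the mean of its organoid type and fraction, and each polysome library was correlated with the total libraries. The vehicle polysome library of N replicate 3 correlated with r = 0.818 with the CR-31 total library of N replicate 3, but only with r = 0.348 with its own total library. The CR-31 polysome library of N replicate 3 correlated with r = 0.714 with the vehicle total library of that replicate and r = 0.331 with its own. The CR-31 polysome library of KP replicate 1 likewise was most like the vehicle total library of KP replicate 1 (r = 0.688, own 0.209). For N vehicle replicate 2 the values were 0.702 for the CR-31 total library and 0.658 for its own. The remaining 8 polysome libraries were most like their own total library, with r between 0.655 and 0.911. No library was relabelled, and many results, though not all, are given with and without N replicate 3. The sequencing lanes of N and KP were separate, so the type of organoid and the lane cannot be told apart.

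The levels per kilobase (RPKM) allow genes to be compared with each other. The entry shared by Erbb2 and Mien1 had the highest RPKM, 166 ± 40.8 in vehicle polysome-associated mRNA of N and 236 ± 33.6 in that of KP (SD, n = 3), but it is left out of the order below because its length belongs to neither gene alone. Of the members with an entry of their own, Errfi1 led the polysome-associated mRNA of vehicle-treated N organoids with 81.9 ± 32.6 RPKM (SD, n = 3). It was followed by Hbegf (52.9 ± 41.2), Areg (39.7 ± 28.7), Egfr (23.3 ± 13.7), Tgfa (14.6 ± 7.07), Ereg (8.05 ± 5.92), Erbb3 (7.60 ± 2.62) and Btc (6.40 ± 2.47). In this order every neighbouring pair overlapped between replicates down to Btc, which stood clear of Epgn. In vehicle-treated KP organoids the order was Areg (49.5 ± 16.3 RPKM), Errfi1 (47.5 ± 7.82), Tgfa (38.1 ± 7.96), Hbegf (21.8 ± 0.996), Btc (5.50 ± 2.17), Erbb3 (5.38 ± 1.36), Ereg (4.86 ± 2.06) and Egfr (2.15 ± 0.484). Here Areg, Errfi1 and Tgfa overlapped with each other in turn, and so did Btc, Erbb3 and Ereg, whereas Tgfa, Hbegf, Ereg and Egfr stood clear of the next lower gene. Egfr moved from the fourth place in N to the last place before Epgn in KP.

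**Figure D1:**
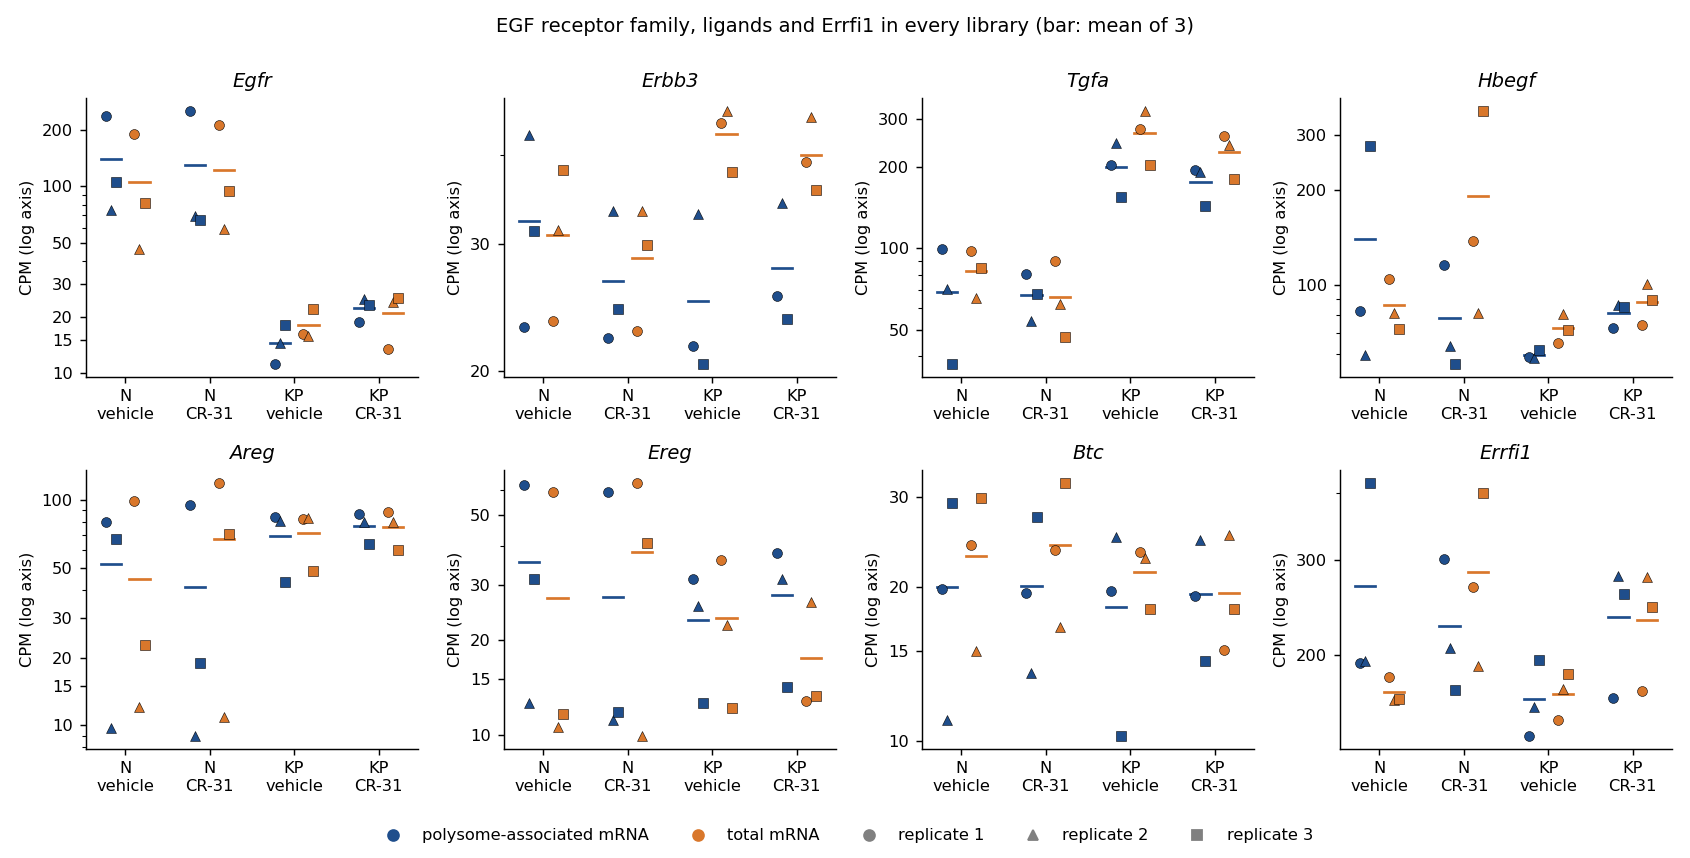
CPM (log axis) of the 8 members tested in each of the 24 libraries, by organoid type and treatment; points are single libraries, colour gives the fraction, shape the replicate number, and each bar is the mean of 3 libraries. Egfr lies between 46.4 and 254 CPM in N and between 11.2 and 25.2 CPM in KP, Tgfa is higher in KP, and Hbegf is highest in 2 libraries of N replicate 3.

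Egfr was the member that differed most between the organoid types. The gene spans chr11:16752203-16918158 on the plus strand (GRCm38) and encodes the receptor of EGF itself. In vehicle polysome-associated mRNA it was at 239.9, 75.0 and 105 CPM in the 3 N libraries and at 11.2, 14.5 and 18.1 CPM in the 3 KP libraries. All N libraries were above all KP libraries, and N replicate 1 was the highest. KP was lower by a log2 fold change of -3.22 (SE 0.56, 9.34-fold lower), with an adjusted p of 0.00585 in edgeR's quasi-likelihood test over all genes. The size of the difference rested in part on N replicate 1. Without it KP was lower by -2.63 (6.19-fold, edgeR adjusted p = 0.00142), and without N replicate 3 by -3.39 (adjusted p = 0.00571). The summed duct markers also were lower in these KP libraries than in N, and their part in the Egfr difference was not tested. In bulk organoids, fewer cells that express a gene and less of its mRNA per cell cannot be told apart.

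Total mRNA gave the same picture for Egfr. It was at 191, 46.4 and 81.5 CPM in vehicle-treated N and at 16.21, 15.8 and 22.05 CPM in vehicle-treated KP, again without overlap. The log2 fold change was -2.55 (SE 0.54, 5.87-fold lower, edgeR adjusted p = 0.0161). It was -1.84 without N replicate 1 (3.57-fold, edgeR adjusted p = 0.00872) and -2.71 without N replicate 3 (adjusted p = 0.0453). Under CR-31 the KP libraries remained below the N libraries. KP was lower there by -2.54 on the log2 scale in polysome-associated mRNA (edgeR adjusted p = 0.0214) and -2.52 in total mRNA (0.0169). Leaving out N replicate 3 gave -2.87 (edgeR adjusted p = 0.0240) and -2.68 (0.0479), and leaving out N replicate 1 gave -1.61 (edgeR adjusted p = 0.00857) and -1.84 (0.00951).

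Erbb3, on chr10:128567523-128589652 (minus strand), differed far less. In vehicle polysome-associated mRNA it was at 22.99, 42.6 and 31.4 CPM in N and at 21.7, 33.1 and 20.4 CPM in KP, and the groups overlapped (log2 fold change -0.33, 95% interval -0.96 to 0.31, edgeR adjusted p = 0.465). It was called lower when N replicate 1 was left out (-0.56, edgeR adjusted p = 0.199) and with the replicate block on all libraries (-0.32, 0.2100). For KP against N that block joins libraries of the same number, which did not deviate together between the types (r from -0.168 to 0.279). In total mRNA it was at 23.4, 31.4 and 38.1 CPM in N and at 44.3, 46.1 and 37.9 CPM in KP, where the lowest KP library lay just under the highest N library. The log2 fold change of 0.46 (SE 0.22) passed the threshold of 0.25 with an adjusted p of 0.218, but it was called in only 8 of 18 repeats of the fit that left out libraries. In these the value ranged from 0.29 to 0.63 and the edgeR adjusted p from 0.184 to 0.454. Under CR-31 the total mRNA of Erbb3 was higher in KP by 0.51 (SE 0.22, edgeR adjusted p = 0.144), with no overlap. This call was lost without KP replicate 1 (0.51, edgeR adjusted p = 0.346) or KP replicate 2 (0.44, 0.299). It was also lost when only the CR-31 libraries were left out of KP replicate 1 (0.51, edgeR adjusted p = 0.289), KP replicate 2 (0.44, 0.266) or N replicate 1 (0.37, 0.2998).

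Erbb2 could be read only with Mien1. Erbb2 lies at chr11:98412470-98437716 on the plus strand and Mien1 at chr11:98437708-98438991 on the minus strand, so that their 3' ends overlap by 9 bases, and reads of the genes were entered together. The shared entry was at 151, 221 and 199.7 CPM in vehicle polysome-associated mRNA of N and at 284, 307 and 245 CPM in that of KP. KP was higher without overlap (log2 fold change 0.56, SE 0.21, edgeR adjusted p = 0.0870 when entries of several genes were kept in the fit). In total mRNA the entry was at 129, 213 and 187 CPM in N and at 199, 213 and 182 CPM in KP, and it did not pass (log2 fold change 0.16, 95% interval -0.38 to 0.70). Which of the genes these values belong to cannot be told apart.

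Tgfa was the ligand that differed between the types in each fraction. It encodes TGF-alpha, a ligand of Egfr, on chr6:86195223-86275719 (plus strand). Vehicle polysome-associated mRNA held 99.2, 71.0 and 37.3 CPM in N and 203, 244 and 154 CPM in KP. The lowest KP library was above the highest N library, with a log2 fold change of 1.58 (SE 0.33, 2.98-fold higher, edgeR adjusted p = 0.0117). Total mRNA held 97.7, 65.7 and 84.4 CPM in N and 275, 322 and 203 CPM in KP. Again the groups were apart, with a log2 fold change of 1.69 (SE 0.28, edgeR adjusted p = 0.00506). With N replicate 3 left out the values were 1.28 (edgeR adjusted p = 0.0137) and 1.70 (0.0205). Under CR-31 Tgfa was higher in KP by 1.38 in polysome-associated mRNA (edgeR adjusted p = 0.0309) and by 1.81 in total mRNA (0.00461).

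Hbegf, which encodes heparin-binding EGF, was called in vehicle polysome-associated mRNA, but 1 library set the size of the difference. It was at 82.5, 59.4 and 276 CPM in N and at 58.6, 58.3 and 61.9 CPM in KP. Only the N replicate 3 library stood well above KP, and the groups overlapped. KP was lower by a log2 fold change of -1.18 (SE 0.47, edgeR adjusted p = 0.107), and without N replicate 3 by -0.21 (adjusted p = 0.552). The call was also lost without the vehicle libraries of N replicate 3 alone (-0.22, edgeR adjusted p = 0.607), without KP replicate 1 (-1.17, 0.279) and without KP replicate 2 (-1.17, 0.257). In total mRNA Hbegf was at 104, 81.4 and 72.0 CPM in N and at 65.0, 80.7 and 71.5 CPM in KP (log2 fold change -0.25, 95% interval -1.13 to 0.64). Under CR-31 the library that stood out was the total library of N replicate 3 with 358 CPM, beside 137 and 81.2 CPM in the other N libraries and 74.1, 100.1 and 89.1 CPM in KP. The log2 fold change there was -1.10 (edgeR adjusted p = 0.102), and -0.29 without N replicate 3 (0.502). The call there was also lost without KP replicate 1 (-1.01, edgeR adjusted p = 0.348), or without the CR-31 libraries alone of KP replicate 1 (-1.01, 0.297) or N replicate 3 (-0.29, 0.496).

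Errfi1 encodes Mig-6, which binds the kinase domain of active receptors and inhibits them. In vehicle polysome-associated mRNA it was at 193, 195 and 419 CPM in N and at 141, 159.8 and 196 CPM in KP. As for Hbegf, the N replicate 3 library was the high one, and the highest KP library overlapped with N. The log2 fold change was -0.66 (SE 0.34, edgeR adjusted p = 0.200), and -0.19 without N replicate 3 (adjusted p = 0.616). It was also lost without KP replicate 1 (-0.55, edgeR adjusted p = 0.426) and without KP replicate 2 (-0.64, 0.373). Leaving out only the vehicle libraries gave no call either, for N replicate 3 (-0.19, edgeR adjusted p = 0.656), KP replicate 1 (-0.55, 0.417) or KP replicate 2 (-0.64, 0.337). In total mRNA Errfi1 was at 182, 165 and 165 CPM in N and at 151, 173 and 184 CPM in KP, with a log2 fold change of -0.01 (95% interval -0.56 to 0.54).

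Areg, Ereg and Btc were not called between the types in edgeR's fit of all libraries without a block, and their replicates varied widely. Areg encodes amphiregulin. It was at 80.1, 9.78 and 66.9 CPM in the vehicle polysome libraries of N and at 84.5, 80.4 and 43.4 CPM in those of KP. The N libraries of Areg spanned 8.19-fold, and the KP libraries 1.95-fold. Its log2 fold change of 0.45 therefore had a 95% interval from -1.26 to 2.162. Ereg encodes epiregulin, and was at 62.3, 12.6 and 31.4 CPM in N and at 31.3, 25.6 and 12.6 CPM in KP (log2 fold change -0.57, 95% interval -2.09 to 0.94). Btc encodes betacellulin, and was at 19.8, 11.02 and 29.1 CPM in N and at 19.6, 25.03 and 10.2 CPM in KP (log2 fold change -0.08, 95% interval -0.98 to 0.81). For both, the replicates of each type overlapped. These intervals include changes of 1.5-fold and more in either direction, which these data therefore do not exclude. Without N replicate 3 the log2 fold change was 0.68 for Areg, -0.64 for Ereg and 0.30 for Btc, and edgeR called none of them.

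In vehicle total mRNA Areg was at 98.8, 12.1 and 22.7 CPM in N and at 82.7, 83.4 and 48.5 CPM in KP (log2 fold change 0.69, 95% interval -0.99 to 2.37, edgeR adjusted p = 0.632). N replicate 1 was the highest of these 6 libraries and the other 2 N libraries were below all KP libraries. With N replicate 1 left out Areg was higher in KP by 2.03 (4.08-fold, edgeR adjusted p = 0.0616), beside 37.7% of all genes called, and it was called, too, with only the vehicle libraries of that replicate left out (edgeR adjusted p = 0.101). Under CR-31 the polysome-associated mRNA of Areg differed by 0.90 (edgeR adjusted p = 0.548), and by 2.46 (0.0580) when N replicate 1 was left out, beside 31.08% of all genes. The replicate block also called it there (1.46, edgeR adjusted p = 0.226), although the replicate numbers do not pair N with KP. The total mRNA of Areg under CR-31 differed by 0.22 (edgeR adjusted p = 0.868).

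Ereg was at 59.4, 10.6 and 11.6 CPM in vehicle total mRNA of N and at 36.01, 22.4 and 12.1 CPM in that of KP (log2 fold change -0.21, edgeR adjusted p = 0.897), and at 1.06 (0.266) when N replicate 1 was left out. Under CR-31 its polysome-associated mRNA differed by 0.02 (edgeR adjusted p = 0.992) and was called without N replicate 1 (1.28, 0.161) or without only its CR-31 libraries (1.27, 0.247). In total mRNA under CR-31 Ereg was at -1.09 (edgeR adjusted p = 0.333) and was called lower in KP without N replicate 2 (-1.54, 0.159), without only its CR-31 libraries (-1.54, 0.186), or without the vehicle libraries of N replicate 1 (-1.09, 0.216). The calls of Ereg thus depended on which N library was left out, and those of Areg on that or on the block. Btc was at 24.2, 15.02 and 29.8 CPM in vehicle total mRNA of N and at 23.4, 22.8 and 18.1 CPM in that of KP, which overlapped (log2 fold change -0.10, edgeR adjusted p = 0.876).

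Epgn, which encodes epigen, had at most 12 counts in any library and was at 0 in 6 of the 24. Its highest level was 0.133 CPM. In these 6 libraries a count of 0 allows a level of up to 0.0314 to 0.0757 CPM, depending on the library (3 counts, counting error only). No fold change is given for it.

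Of the 8 members tested, 4 were called in vehicle polysome-associated mRNA (1 higher and 3 lower in KP), beside 43.1% of all genes tested (20.9% higher and 22.2% lower). The groups did not overlap for 2 of 8 members, beside 33.6% of all genes. When N replicate 3 was left out, Egfr and Tgfa were called (2 of 8), beside 52.6% of all genes. In total mRNA 3 of 8 were called, beside 28.5%, and under CR-31 2 of 8 in polysome-associated mRNA and 4 of 8 in total mRNA, beside 25% and 39.9%. Leaving out N replicate 3 gave 3 of 8 in total mRNA with vehicle (18.9% of all genes), and under CR-31 2 of 8 in polysome-associated mRNA (34.7%) and 3 of 8 in total mRNA (26.9%). These counts are read against the shares of all genes and are no result about the family as a group. The median log2 fold change of the 8 in vehicle polysome-associated mRNA was -0.45, against -0.03 over all genes.

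**Figure D2:**
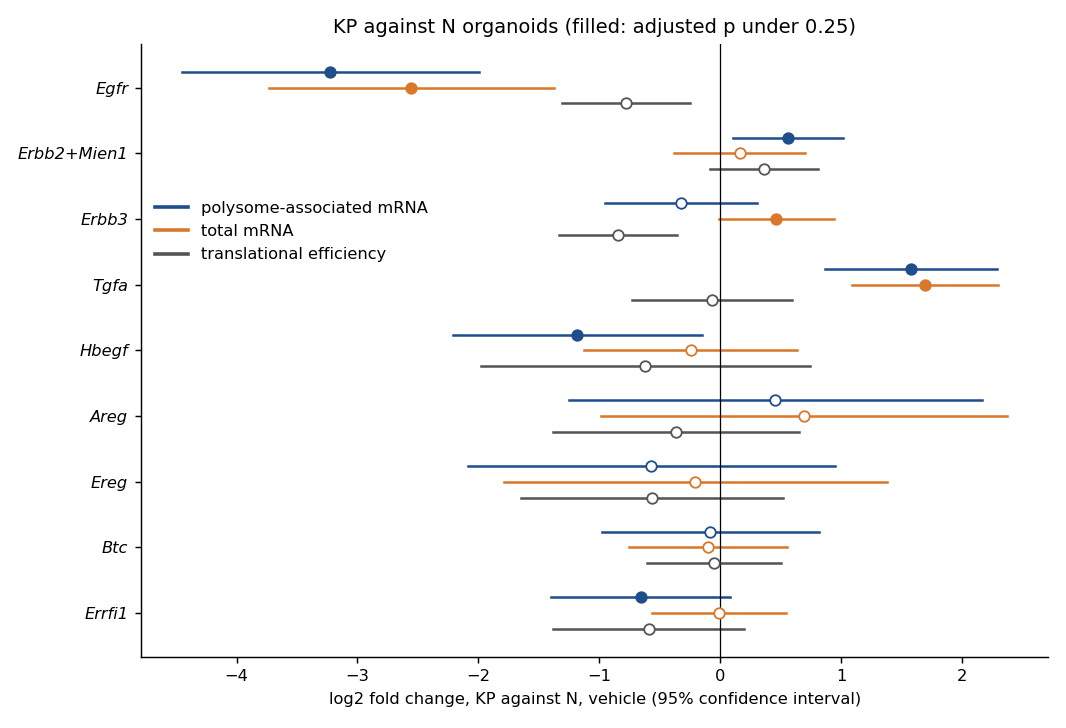
Log2 fold change of KP against N with vehicle for the 8 members tested and the entry shared by Erbb2 and Mien1, in polysome-associated mRNA, total mRNA and translational efficiency; bars are 95% intervals of the edgeR fit and filled points have an adjusted p under 0.25. The intervals of Egfr lie below 0 in all 3 measures, and that of Erbb3 lies below 0 in translational efficiency, where no point is filled. Those of Tgfa lie above 0 in both fractions. In polysome-associated mRNA that of Hbegf lies below 0 and that of the shared entry above 0.

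The makeup of the ligand pool, as each ligand's share of the summed RPKM of the 6 ligands, is a description. The sum was 121.7 ± 59.4 RPKM in N and 119.8 ± 26.7 RPKM in KP (SD, n = 3; vehicle, polysome-associated mRNA). Tgfa made up 15.1%, 28.1% and 4.16% of it in the N libraries and 29.1%, 33.7% and 33.1% in the KP libraries. In total mRNA its share was 19.1% ± 5.62 in N and 36.3% ± 1.46 in KP. Every KP library had a higher Tgfa share than every N library, in both fractions. Hbegf made up 24.1%, 45.02% and 58.96% of the pool in N and 16.1%, 15.4% and 25.5% in KP in polysome-associated mRNA, where the highest KP share overlapped with the lowest N share. Areg made up 45.6%, 14.5% and 27.9% in N and 40.6% ± 5.30 in KP, and Ereg, Btc and Epgn together were the smaller part. The PCR-amplified reads behind these shares carry no molecular identifiers.

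**Figure D3:**
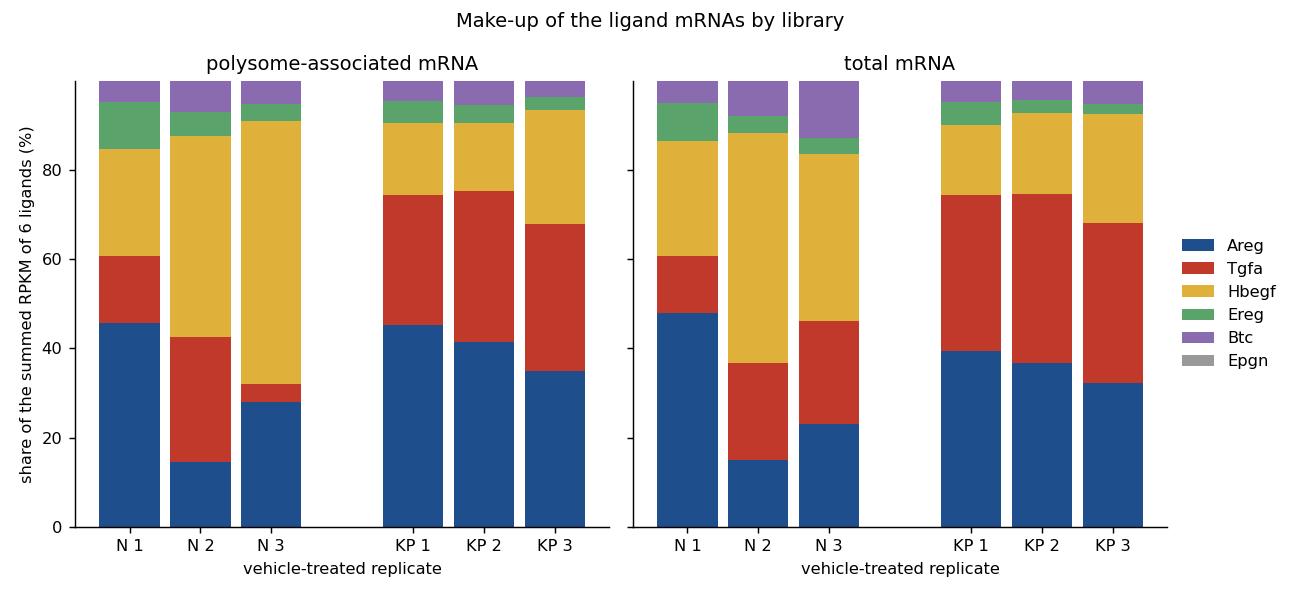
Share of each of the 6 ligands in their summed RPKM, in percent, in the 12 vehicle-treated libraries; each bar is 1 library and starts at 0. Tgfa takes 29.1% to 33.7% of the pool in vehicle-treated KP polysome libraries and 4.16% to 28.1% in those of N.

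Whether the members were loaded on ribosomes to the same degree was asked with the ratio of polysome-associated to total mRNA in each lysate. Each fraction was scaled to its own library size. A log2 ratio near 0 is therefore that of the average mRNA, and not an equal amount in both fractions. For Egfr in vehicle the log2 ratio was 0.33, 0.69 and 0.37 in N and -0.54, -0.13 and -0.29 in KP. All N lysates were above 0 and all KP lysates below. For Erbb3 it was -0.03, 0.44 and -0.28 in N and -1.03, -0.48 and -0.89 in KP, where every KP lysate was below every N lysate. In the edgeR model of both fractions the translational efficiency of Egfr was lower in KP by -0.78 (SE 0.25, unadjusted p = 0.00671, adjusted p = 0.433), and that of Erbb3 by -0.85 (SE 0.23, unadjusted p = 0.00226, adjusted p = 0.433). For the other members the fitted differences were -0.62 for Hbegf, -0.59 for Errfi1, -0.56 for Ereg, -0.36 for Areg, -0.07 for Tgfa and -0.06 for Btc, with edgeR adjusted p-values from 0.506 to 0.942. That of the entry shared by Erbb2 and Mien1 was 0.36 (SE 0.21, edgeR adjusted p = 0.481), and every KP lysate had a higher ratio than every N lysate.

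None of the members, and 0 of all 11438 genes, were called for translational efficiency between KP and N in that fit. An unadjusted p under 0.05 was found for 2 of 8 members, beside 11.3% of all genes. DESeq2 called 2 of 8 members, Egfr (adjusted p = 0.233) and Erbb3 (adjusted p = 0.177), beside 3.06% of all genes. Without N replicate 3, edgeR called 3 of 8 members, beside 35.8% of all genes: Egfr by -0.82 (adjusted p = 0.0801), Erbb3 by -0.995 (adjusted p = 0.0749) and Tgfa by -0.46 (adjusted p = 0.0818). The same 3 were called when only the vehicle libraries of N replicate 3 were left out, beside 18.77% of all genes: Egfr (-0.86, edgeR adjusted p = 0.155), Erbb3 (-1.04, 0.127) and Tgfa (-0.50, 0.242). Egfr (-0.80, edgeR adjusted p = 0.225) and Erbb3 (-0.87, 0.225) were called when only its CR-31 libraries were left out, beside 3.541%. Under CR-31 the efficiency of KP against N ranged from -0.43 to 1.18 among the 8 members. With all libraries edgeR called 0 of 8 there, beside 0% of all genes.

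**Figure D4:**
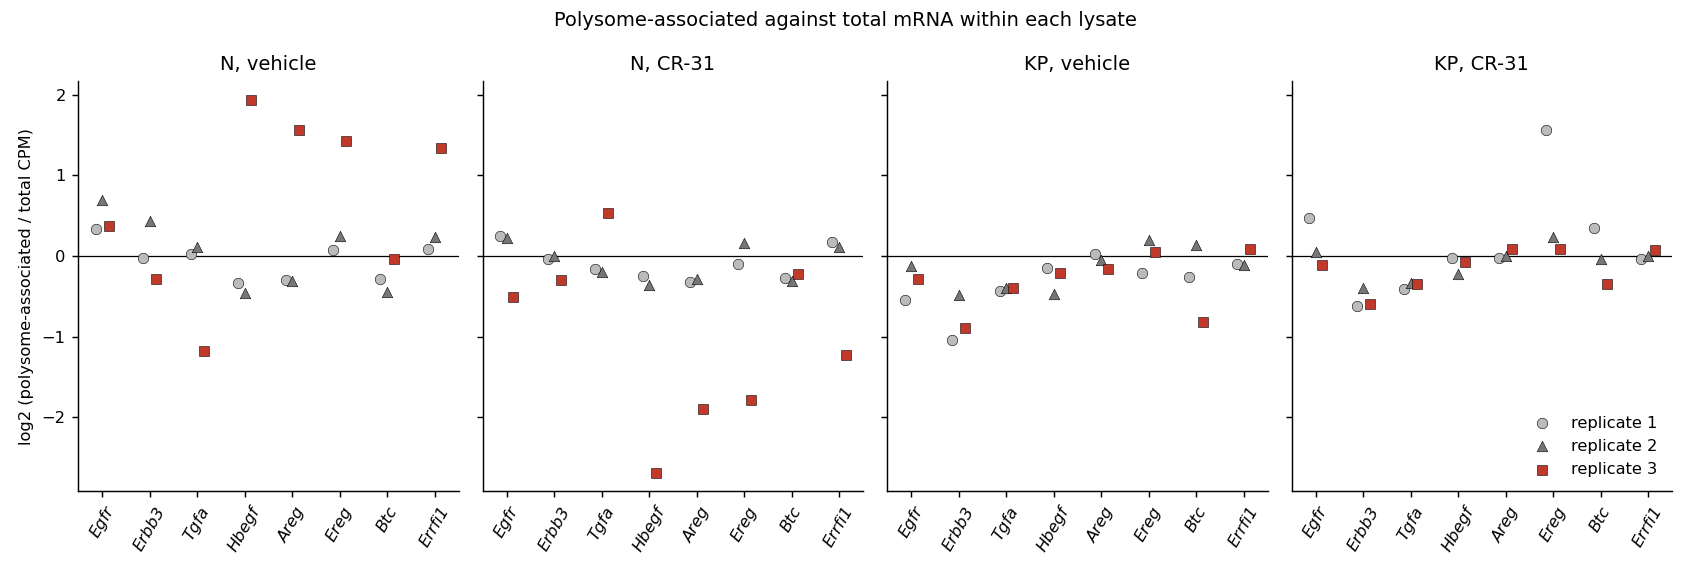
Log2 ratio of polysome-associated to total CPM in each of the 12 lysates for the 8 members tested; points are single lysates, with replicate 3 as red squares. In vehicle, Egfr lies above 0 in the 3 N lysates and below 0 in the 3 KP lysates, and N replicate 3 stands apart for Areg, Ereg, Hbegf, Tgfa and Errfi1 in opposite directions with vehicle and CR-31.

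Within 1 type, Egfr had a higher share of polysome-associated than of total mRNA in vehicle-treated N (log2 ratio 0.46, SE 0.17, edgeR adjusted p = 0.1703). This was 1 of 8 members, beside 15.2% of all genes, and the call was lost without N replicate 1 (0.50, edgeR adjusted p = 0.315), N replicate 2 (0.37, 0.593) or KP replicate 2 (0.46, 0.287), or the vehicle libraries alone of N replicate 1 (0.53, 0.253) or N replicate 2 (0.37, 0.557). In vehicle-treated KP Erbb3 had a lower share of polysome-associated than of total mRNA (-0.80, SE 0.16, edgeR adjusted p = 0.0449), again 1 of 8 members, beside 27.5% of all genes. This call was lost without KP replicate 3 (-0.75, edgeR adjusted p = 0.271) or the vehicle libraries of KP replicate 1 (-0.69, 0.267). The entry of Erbb2 and Mien1 had a higher share of polysome-associated than of total mRNA in KP (0.49, SE 0.15, edgeR adjusted p = 0.0880). The members not called ranged from -0.34 (Tgfa) to 0.58 (Ereg) in N and from -0.41 (Tgfa) to 0.01 (Ereg) in KP. With N replicate 3 left out, 3 members were called in N and 4 in KP, beside 35.7% and 47.8% of all genes.

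The N replicate 3 lysates set most of the other ratios. With vehicle their log2 ratio was 1.94 for Hbegf, 1.56 for Areg, 1.43 for Ereg, 1.35 for Errfi1 and -1.18 for Tgfa. With CR-31 it was -2.69 for Hbegf, -1.89 for Areg, -1.78 for Ereg, -1.22 for Errfi1 and 0.54 for Tgfa. The signs were opposite between the treatments for all 5 members, whereas the other 2 N lysates of each treatment lay between -0.45 and 0.26 for these members. These are the libraries whose total and polysome profiles matched across the treatments.

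The question of the CR-31 treatment was whether the family's share of the ribosome-bound mRNA changed within 1 h of eIF4A inhibition. Each library was scaled to its own size, so a loss or gain common to all mRNAs does not show in these values. A higher value with CR-31 can thus be a smaller loss than that of other mRNAs. In edgeR's fit, 0 of the 8 members and 0 of all genes passed the threshold in N or in KP. This held for polysome-associated mRNA, total mRNA and translational efficiency. For the first 2 of these the fit had no replicate term, although vehicle and CR-31 libraries were taken as paired. With the replicate block, 19.3% of all genes were called in polysome-associated mRNA of KP. DESeq2 also called 0 of the members in each of these 6 comparisons. An unadjusted p under 0.05 was found for 0 of 8 members in the polysome-associated mRNA of KP, beside 3.55% of all genes, and for 0 of 8 in that of N, beside 0.42%. In total mRNA it was found for 0 of 8 in KP and for 2 of 8 in N, beside 0.953% and 2.6%, and in translational efficiency for 0 of 8 in KP and 3 of 8 in N, beside 5.48% and 2.87%.

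Egfr in KP was the 1 member called in any polysome fit of CR-31 that used all libraries. Its polysome-associated mRNA was at 11.2, 14.5 and 18.1 CPM with vehicle and at 18.7, 24.9 and 23.3 CPM with CR-31, so that the groups did not overlap. The log2 change in the 3 replicates was 0.74, 0.78 and 0.37. The fit without a replicate term gave 0.58 (SE 0.52, 95% interval -0.55 to 1.71) and no call. Vehicle and CR-31 libraries of the same number deviated together within a type. A fit that blocked on the number gave 0.60 (SE 0.17, edgeR adjusted p = 0.192), which passed. It was then 1 of 8 members called, beside 19.3% of all genes. In total mRNA Egfr was at 16.21, 15.8 and 22.05 CPM with vehicle and at 13.5, 24.0 and 25.2 CPM with CR-31, which overlapped. The translational efficiency of Egfr in KP was 0.45 higher with CR-31 (SE 0.25, edgeR adjusted p = 0.529), with replicate changes of 1.01, 0.18 and 0.17. It was called in 1 of the 26 settings run. Replicate 1 of KP holds the CR-31 polysome library that was most like the vehicle total library.

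Hbegf and Errfi1 in KP also had higher polysome-associated values with CR-31. Hbegf was at 58.6, 58.3 and 61.9 CPM with vehicle and at 72.6, 85.8 and 85.0 CPM with CR-31, without overlap, and changed by 0.31, 0.56 and 0.46 in the replicates. Errfi1 was at 141, 159.8 and 196 CPM with vehicle and at 166, 280.1 and 259 CPM with CR-31. Here CR-31 replicate 1 lay below vehicle replicate 3, although each replicate was higher with CR-31 than with vehicle (0.24, 0.81 and 0.41). Neither passed with all libraries, with fitted values of 0.41 (SE 0.47) for Hbegf and 0.48 (SE 0.34) for Errfi1.

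The other members in KP gave smaller fitted values in polysome-associated mRNA, with 0.23 for Ereg, 0.12 for Erbb3, 0.11 for Areg, 0.05 for Btc and -0.22 for Tgfa. Btc was at 19.6, 25.03 and 10.2 CPM with vehicle and at 19.2, 24.7 and 14.3 CPM with CR-31, and the groups overlapped. The entry shared by Erbb2 and Mien1 was at 284, 307 and 245 CPM with vehicle and at 209, 227 and 233 CPM with CR-31, so that every CR-31 library lay below every vehicle library. Its fitted value was -0.32 (SE 0.21, edgeR adjusted p = 0.9999), and that of its translational efficiency was -0.46 (SE 0.21, unadjusted p = 0.0431, adjusted p = 0.519), with replicate changes of -0.89, -0.36 and -0.16. The largest of these came from KP replicate 1. In N the 8 members ranged from -0.82 (Hbegf) to 0.02 (Btc) in polysome-associated mRNA, and the shared entry was at 0.07 (SE 0.21). In total mRNA the members ranged from -0.39 (Ereg) to 0.48 (Errfi1) in KP and from -0.32 (Tgfa) to 1.16 (Hbegf) in N.

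When N replicate 3 was left out without a block, the polysome fit called 0 of 8 members in KP, beside 0.0175% of all genes. With the replicate block as well, it called 5 of 8, beside 54.9% of all genes. Egfr (0.60, edgeR adjusted p = 0.00180), Hbegf (0.41, adjusted p = 0.00988), Errfi1 (0.45, adjusted p = 0.0214) and Ereg (0.21, adjusted p = 0.0813) were higher, and Tgfa (-0.21, adjusted p = 0.151) was lower. In N the same fit, on the 2 remaining pairs, called 3 of 8, beside 15% of all genes: Hbegf (0.31, edgeR adjusted p = 0.213), Errfi1 (0.38, adjusted p = 0.242) and Tgfa (-0.33, adjusted p = 0.201). The difference of the CR-31 effect between KP and N was called for Egfr (0.59, edgeR adjusted p = 0.0937), Ereg (0.32, adjusted p = 0.186) and Erbb3 (0.31, adjusted p = 0.235), beside 27% of all genes. With all libraries and no block, the same differences had adjusted p-values of 0.999, and 0 of 8 members were called, with 0 of 8 at an unadjusted p under 0.05, beside 2.26% of all genes.

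In N the total mRNA of Errfi1 was at 182, 165 and 165 CPM with vehicle and at 267.05, 191 and 399.8 CPM with CR-31, all above vehicle (0.74 on the log2 scale, SE 0.25, unadjusted p = 0.0131, edgeR adjusted p = 0.9998). That of Hbegf was at 104, 81.4 and 72.0 CPM with vehicle and at 137, 81.2 and 358 CPM with CR-31, which overlapped (1.16, SE 0.41, unadjusted p = 0.0153, edgeR adjusted p = 0.9998). Without N replicate 3 the values were 0.40 for Errfi1 and 0.24 for Hbegf. The translational efficiency in N was lower with CR-31 by -1.12 for Areg, -1.13 for Ereg, -1.40 for Hbegf and -0.86 for Errfi1, with an edgeR adjusted p of 0.736 for each. Leaving out replicate 3 gave 0.00068 for Areg, -0.13 for Ereg, 0.09 for Hbegf and -0.02 for Errfi1, so the values rested on it.

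**Figure D5:**
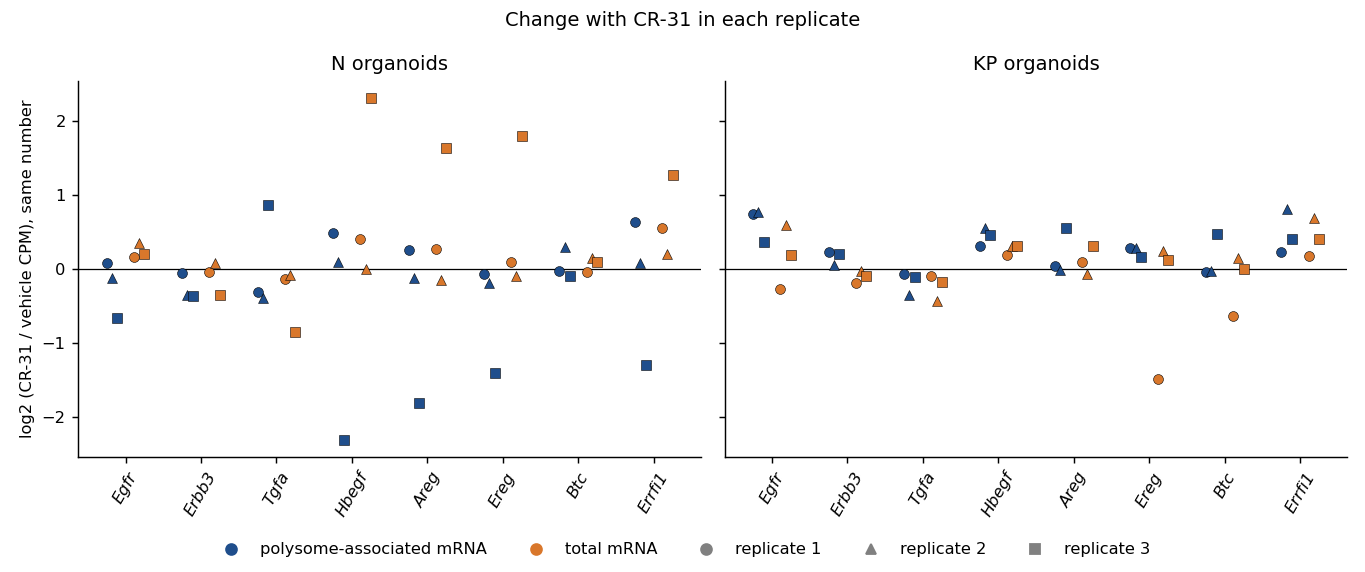
Log2 ratio of CR-31 to vehicle CPM between samples of the same replicate number, in N and in KP, for polysome-associated and total mRNA of the 8 members tested; each point is 1 such ratio. In KP polysome-associated mRNA the 3 points of Egfr, Erbb3, Hbegf, Errfi1 and Ereg lie above 0 and those of Tgfa below 0, and in N replicate 3 lies apart from the other numbers for Hbegf, Areg, Ereg, Tgfa and Errfi1.

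Around the receptors, 43 further genes of the pathway were listed, of which 38 were tested. Nrg4, Adam17 and Lrig1 shared an entry with another gene, and Erbb4 and Nrg3 were at 0 in some or all libraries, with at most 4 counts. In vehicle polysome-associated mRNA of KP against N, 3 of the 38 were higher, 10 lower and 25 not called. This is 34.2% of the list, beside 43.1% of all genes, with a median log2 fold change of -0.29 against -0.03. Without N replicate 3, 6 were higher and 20 lower, beside 52.6% of all genes, and these held all 13 calls made with every library.

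Among the adaptors and first effectors 2 of 13 were higher and 4 lower, that is 46.2%, beside 43.1% of all genes. When N replicate 3 was left out these were 3 higher and 9 lower, beside 52.6%. The higher genes were Pik3r2 (0.98, edgeR adjusted p = 0.0240), a regulatory subunit of PI3-kinase, and Shc1 (0.89, adjusted p = 0.0460), an adaptor that links receptors to Ras. The lower genes included Gab2 (-1.08, edgeR adjusted p = 0.0359), a docking protein, and Pik3r1 (-1.06, adjusted p = 0.0711), another regulatory subunit of PI3-kinase. The regulatory subunits Pik3r1 and Pik3r2 thus differed in opposite directions.

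Among the 16 genes listed under removal and inhibition of receptors, 4 were lower and 0 higher, that is 25% called, beside 43.1% of all genes (22.2% lower). Without N replicate 3, 8 were lower and 2 higher, beside 52.6%. The higher genes were then Cblc (0.36, edgeR adjusted p = 0.177), a ubiquitin ligase, and Grb7 (0.81, adjusted p = 0.0255), both named after their values were seen. Grb7 stands in this list but is known as an adaptor that binds active receptors, not as an inhibitor. Cblb (-1.37, edgeR adjusted p = 0.00988) encodes a ubiquitin ligase of active receptors, Ptprj (-1.04, adjusted p = 0.0742) a receptor phosphatase, and Lrig2 (-0.98, adjusted p = 0.0382) a membrane protein of the LRIG family. Of the shedding genes, Rhbdl2 (0.72, edgeR adjusted p = 0.181), a rhomboid protease, was higher and Adam10 (-0.83, adjusted p = 0.0394) was lower, 2 of 5 in all. Of the 3 further ligands, Nrg1 (-1.24, edgeR adjusted p = 0.177), a ligand of Erbb3, was lower. In total mRNA 2 of the 38 were higher and 3 lower, or 13.2%, beside 28.5% of all genes. Without N replicate 3 it was 0 higher and 1 lower, beside 18.9%. In translational efficiency 0 were called with all libraries by edgeR and 0 by DESeq2, with 5 at an unadjusted p under 0.05, or 13.2%, beside 11.3% of all genes. When N replicate 3 was left out, 4 were higher and 16 lower, beside 35.8% of all genes.

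With CR-31, edgeR and DESeq2 called 0 of the 38 in either type and fraction when all libraries entered without a block. An unadjusted p under 0.05 was found for 3 in polysome-associated mRNA of KP and 0 in that of N, beside 3.55% and 0.42% of all genes. In total mRNA it was found for 1 in KP and 3 in N, beside 0.953% and 2.6%. The fit that blocked on the replicate number called 10 of the 38 in polysome-associated mRNA of KP, or 26.3%, beside 19.3% of all genes, of which 8 were higher and 2 lower. Those higher with CR-31 included Nrg1 (0.99, edgeR adjusted p = 0.192), Adam10 (0.74, 0.192), which encodes a protease that sheds ligands, Gab1 (0.70, 0.192), a docking protein beside Egfr, and Stat3 (0.59, 0.2398). Cblb, Pik3r1, Socs4 and the scaffold gene listed as Erbb2ip were the others. The lower genes were Pik3r2 (-0.67, edgeR adjusted p = 0.192) and Cblc (-0.38, 0.216), a ubiquitin ligase. Egfr (0.60) was higher in the same fit. The KP vehicle libraries enter both this comparison and that of KP with N.

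The genes most like each member were found by the Pearson r of log2 CPM over the 12 polysome libraries, which share organoid type, lane and treatment. For Egfr these were Tpbg (r = 0.979), Thbs1 (0.9748) and Inhba (0.973). For Hbegf they were Junb (0.968), Rnmt (0.954) and Fos (0.951), of which Junb and Fos are immediate-early transcription factors. For Errfi1 they were Midn (0.950), Gata6 (0.920) and Cyr61 (0.902). For Tgfa they were Rasef (0.976), Pafah2 (0.970) and Rps6ka6 (0.969), and for Areg they were Rrp1b (0.969), Bckdhb (0.959) and Tead4 (0.957). For Ereg they were F3 (0.941), Zfp57 (0.932) and Txnrd3 (0.911), for Btc Ly96 (0.971), Esd (0.956) and Rab6b (0.934), and for Erbb3 Onecut1 (0.899), Tmem260 (0.878) and Hykk (0.862). Among the members the pair Hbegf and Errfi1 had r = 0.886 and the pair Areg and Ereg r = 0.775. The vehicle polysome library of N replicate 3, the highest for Hbegf and Errfi1, enters the first of these values.

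Epgn, Ereg, Areg and Btc lie on chromosome 5, between Mthfd2l and Parm1. Epgn spans chr5:91027464-91035215, Ereg chr5:91074622-91093646 and Areg chr5:91139599-91148432, all on the plus strand, and Btc spans chr5:91357261-91402994 on the minus strand (GRCm38). Their levels were far apart despite this position, from 0.0335 RPKM for Epgn to 49.5 RPKM for Areg in the vehicle polysome libraries of KP.

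The promoters of Areg and Errfi1 share the letters of a cAMP response element, and these stretches are shown. Of the members with an entry of their own, they had the highest mean RPKM in the vehicle polysome libraries of KP, where Tgfa overlapped with Errfi1. In vehicle total mRNA of KP the means were 52.1 RPKM for Areg, 51.8 for Tgfa and 49.5 for Errfi1. The promoter of Tgfa lacks these letters, and a link between letters and levels was not tested. Of the 10 members, 7 had a promoter of 300 bases (250 before to 50 after the start) in RefSeq's annotation of GRCm38.p6. The palindrome TGACGTCA, the letters of that element, was searched on both strands. It was found in the promoter of Areg and in 1 of the 2 promoters of Errfi1 and in no other of them. The palindrome is in capitals.
Areg, chr5:91139528-91139555, plus strand, 61 bases before the start: ggctggtccgTGACGTCAcgggcggtgg
Errfi1, chr4:150855009-150855036, plus strand, 51 bases before the start: ctgcgggcgtTGACGTCAcgttgtcgct

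Both of these promoters also held, on a search of both strands, the letters TATAAA of a TATA box nearer to the start, in capitals here.
Areg, chr5:91139557-91139584, plus strand, 31 bases before the start: tccagcgggtcTATAAAagcagcaggtg
Errfi1, chr4:150855031-150855058, plus strand, 28 bases before the start: gtcgctcaccgTATAAAtacgggcgtcg

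Of 32851 mouse promoters of this length 1.79% held TGACGTCA, 13.62% held TATAAA, and 56 (0.1705%) held both. The AP-1 letters TGACTCA, searched on both strands, were in none of the members' windows and in 5.202% of all promoters. Epgn was the only other member with TATAAA. These matches describe letters and not binding. With all libraries Areg and Errfi1 were both uncalled in vehicle total mRNA between KP and N, and Areg was called there when N replicate 1 was left out (2.03).

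The mRNAs of 4 members, Erbb3, Areg, Ereg and Tgfa, carry the nonamer TTATTTATT, the core of AU-rich elements, in the 3' UTR of their longest coding transcript. It occurred in 8.139% of the tested genes with an annotated 3' UTR. The nonamer is in capitals, with 8 bases to either side.
Erbb3, chr10:128568187-128568211, minus strand, base 1165 of a 3' UTR of 1845: tgtaaggaTTATTTATTtcaggaac
Areg, chr5:91148384-91148408, plus strand, base 213 of 253: tttaagtgTTATTTATTttatagct
Ereg, chr5:91093578-91093602, plus strand, base 3441 of 3501: gtcagtttTTATTTATTttttgtta
Tgfa, chr6:86272436-86272460, plus strand, base 489 of 3764: tgcgtgtcTTATTTATTagatggat

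With all libraries and no block, Tgfa of these 4 was higher in KP than in N in both vehicle fractions, Erbb3 was called in total mRNA only, and Areg and Ereg were not called. The replicate block also called Erbb3 in polysome-associated mRNA (-0.32, edgeR adjusted p = 0.2100), although the replicate numbers do not pair N with KP. With N replicate 1 left out Erbb3 was called there (-0.56, edgeR adjusted p = 0.199) and no longer in total mRNA (0.29, 0.358), and Areg was called in total mRNA (2.03, 0.0616). The pentamer ATTTA was found 12 times in the 3' UTR of Egfr, 9 times in that of Ereg, 4 times in those of Erbb3, Areg, Hbegf, Tgfa, Btc and Errfi1, and not in those of Erbb2 and Epgn, against a median of 2 over the tested genes. The 3' UTRs differ in length, with 6303 bases for Egfr against a median of 1170. Per kilobase there were 1.90 in Egfr, 1.06 in Tgfa, 1.93 in Btc, 2.17 in Erbb3, 2.57 in Ereg, 2.75 in Hbegf, 2.88 in Errfi1 and 15.8 in Areg, whose 3' UTR is the shortest at 253 bases, against a median of 1.28. The 5' UTRs of the members were 138 to 292 bases long with 49.7% to 77.4% G and C, beside medians of 236 bases and 62.6% over all tested genes. A run of 4 GGC repeats was in the 5' UTR of 0 of the 10 members, and in 2.74% of the tested genes.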

How the data were processed

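Ribosome-bound and total mRNA of 12 organoid lysates were sequenced by the authors on a HiSeq instrument (paired reads). Per the labels and the study's methods, the reads were aligned with HISAT2 and multi-mapped reads discarded. The processing notes name SAMtools and the builds hg38 and GRCh38, although the table lists mouse genes. The read counts per gene and the RPKM values (reads scaled by transcript length and library size) were deposited by the authors side by side in 1 table. Counts were used for all tests and for CPM, which scales counts by TMM-normalized library size, and RPKM only to compare levels between genes and for ligand shares.

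Entries of several genes (1042 of 19895) and entries with a 0 in any library were left out of the tests, as in the study's methods for zeros. The remaining 11438 genes were fitted with edgeR 4.0.16 (quasi-likelihood, TMM, R 4.3.3), and p-values were adjusted by Benjamini-Hochberg over all of them, with the study's threshold of 0.25. Polysome-associated and total mRNA each had a model of 4 groups and 12 libraries. Translational efficiency was tested in a model of all 24 libraries with a term for each lysate and for fraction by group. Prior count was 0.5. The Erbb2 entry came from a repeat that kept shared entries.

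Vehicle and CR-31 libraries with the same number deviated together in N (r = 0.554 to 0.892) and KP (0.455 to 0.803), so they were taken as paired within a type. Those of N and KP did not (r from -0.168 to 0.279). Replicate pairs differed beyond counting noise. On simulated counts for KP against N in vehicle polysome libraries, the script recovered 86% of 50 genes set to a log2 fold change of -2 and 42% of 50 set to -1, and 74% and 34% of those set to 2 and 1, among 11438 genes. It also called 42 unchanged genes. The simulation changed far fewer genes than the 43.1% called in the data and drew the libraries independently. These shares therefore need not hold for the data. The alternatives were RLE and upper-quartile factors, edgeR's filterByExpr, shared entries kept, a lane term, prior count 2, DESeq2 1.42.0, limma 3.58.1 regression on total mRNA, the replicate block and leaving out each library pair or replicate.

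All 10 members were to be named in every comparison, which was not done throughout. Where results are few, the members not named are given as a range or left out. For KP against N under CR-31, the fitted values of Btc and Errfi1 are not given in either fraction. That of Erbb3 is not given in polysome-associated mRNA. With all libraries and no block, edgeR called none of these. Of the pathway list those called in vehicle polysome-associated mRNA are named, up to 6 in each direction by size, with those called with CR-31, and for each member the 3 most alike genes. The members, lists and tests were chosen with earlier results of these data known. An engineered allele of the KP mice is not reported here. Gene positions and UTRs come from GENCODE M21 (GRCm38), promoters from RefSeq (GRCm38.p6). Intervals and floors cover counting error only where they rest on counts of 1 library.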

Additional observations from a re-analysis of the deposited data

Results flagged for a closer look

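In 3 members the 3 replicate pairs of N and the 3 of KP changed in opposite directions with CR-31. They were picked by this rule of signs from all members and measures. How many of all genes meet the rule was not counted, so the number is no result about the family. Each difference below is the mean log2 change in KP minus that in N.

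For Egfr the translational efficiency was lower in all N pairs and was higher in all KP pairs, a difference of 0.93 on the log2 scale. The pairs of N changed by -0.08, -0.47 and -0.88 and those of KP by 1.01, 0.18 and 0.17. The largest of these came from N replicate 3 and KP replicate 1, which hold libraries that went against their labels, and without both pairs the difference was 0.45. The difference in translational efficiency was not tested.

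For Erbb3 the difference was 0.417 in polysome-associated mRNA, with pair changes of -0.05, -0.35 and -0.36 in N and 0.23, 0.05 and 0.21 in KP. In translational efficiency it was 0.415, with -0.0040, -0.44 and -0.01 in N and 0.41, 0.08 and 0.30 in KP. There 2 of the 3 N pairs were close to 0, and the N change came mostly from N replicate 2, whose vehicle polysome library was slightly more like the CR-31 total library (r = 0.702) than its own (0.658). The difference without that pair was 0.27. For Ereg it was 0.799 in polysome-associated mRNA, with pair changes of -0.07, -0.19 and -1.40 in N and 0.28, 0.29 and 0.17 in KP, and 0.37 without N replicate 3. In translational efficiency it was 1.77, and the largest parts came from the same N replicate 3 (-3.21) and KP replicate 1 (1.77). Without both pairs it was 0.17. These left-out values were chosen after seeing the data.

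The edgeR test of the polysome difference gave an adjusted p of 0.999 for both Erbb3 and Ereg with all libraries. Without N replicate 3 and with the replicate block it gave 0.235 for Erbb3 and 0.186 for Ereg.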

How the results depend on the processing

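Egfr and Tgfa kept their direction and were called in KP against N in both fractions under every alternative run, with vehicle and under CR-31. The values of Hbegf and Errfi1 shrank without N replicate 3, and their calls were lost without it and also without KP replicate 1; in vehicle polysome-associated mRNA they were lost without KP replicate 2 too. For the reversals the cause was not tested. With CR-31, the members called in KP polysome-associated mRNA were 1 with the replicate block, and 5 without N replicate 3 and with the block; in N they were 3 and in the difference 3 under the latter (Hbegf in N 0.31). For KP against N, DESeq2 called 2 for translational efficiency (3.06% of all genes), regression on total mRNA 1 (10.47%) and regression with replicate block 6 (54.1%). The last called 2 for CR-31 in KP (16.7%) and 3 for KP against N under CR-31 (32.9%). For polysome-associated against total mRNA in N, DESeq2 called 2 (18.6%).

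Under regression the Tgfa efficiency (KP against N) was 0.65, and 3.76 with the replicate block. With that block the efficiency of Egfr was -3.04 (adjusted p = 0.125), that of Areg turned to 2.02 (0.0386), and that of Erbb3 was -0.39 (0.486, no call). This block takes up the spread between the replicates of a type, so that spread does not enter the error of these KP against N values. In N with CR-31, regression with the block gave 0.021 for Areg, 0.48 for Hbegf and 0.50 for Errfi1. For KP against N the replicate block gave -3.01 for Egfr and 1.64 for Tgfa in vehicle polysome-associated mRNA, and the numbers do not pair these libraries.

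Leaving out replicates gave 2 to 5 members called in vehicle polysome-associated mRNA (24.6% to 52.6% of all genes), 2 to 3 in total mRNA (14.1% to 37.7%), 2 to 4 (8.03% to 34.7%) and 2 to 6 (15.7% to 46.1%) under CR-31, 0 to 3 for translational efficiency (0% to 35.8%), and 0 to 3 in N (1.75% to 35.7%) and 0 to 4 in KP (0% to 47.8%) for polysome-associated against total mRNA. Values that changed sign ranged, in vehicle polysome-associated mRNA, from -0.057 to 0.90 for Areg, -0.99 to 0.12 for Ereg and -0.40 to 0.30 for Btc, and in total mRNA from -0.077 to 0.071 for Errfi1, -0.64 to 1.07 for Ereg (0.049 with the replicate block) and -0.33 to 0.13 for Btc. Those of efficiency ranged from -1.10 to 0.13 for Hbegf and -0.50 to 0.17 for Tgfa, -0.71 to 0.26 for Areg and -0.28 to 0.18 for Btc. With CR-31 in KP polysome-associated mRNA they ranged from -0.058 to 0.38 for Erbb3, -0.10 to 0.28 for Areg, -0.064 to 0.54 for Ereg and -0.20 to 0.36 for Btc. Under CR-31, KP against N ranged in polysome-associated mRNA from -0.15 to 0.44 for Hbegf and -0.35 to 1.28 for Ereg, and in total mRNA from -0.28 to 0.95 for Areg. With whole replicates left out it ranged there in polysome-associated mRNA from -0.12 to 0.32 for Errfi1, -0.28 to 0.22 for Btc and -0.12 to 0.25 for Erbb3. In total mRNA it ranged from -0.49 to 0.045 for Errfi1. With CR-31 in N, Hbegf ranged from -1.49 to 0.35 in polysome-associated mRNA, and the efficiency from -1.73 to 0.00068 for Areg and -2.27 to 0.094 for Hbegf.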
